A study of Mus musculus with 8 samples.

Results

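The 9 hemidesmosome and anchoring fibril genes fasten the basal cells of an epithelium to its basement membrane and that membrane to the stroma. They are Lama3, Lamb3, Col17a1, Col7a1, Itga6, Itgb4, Dst, Plec and Cd151 and were chosen by symbol from the 23420 named genes of the deposited comparison of mouse cornea and limbus. All 9 had a row, and the fewest reads of any member were the 1224 of Lamb3 in the cornea. The samples were corneal buttons (the central cornea) and limbal rims (the ring between cornea and sclera) of wild type C57BL/6J mice aged 8 weeks, taken from 16 eyeballs and pooled by tissue, so that neither single animals nor their sex can be told apart. Both tissues shared the same genotype, no treatment is named for either, and total RNA was sequenced from stranded libraries. The labels number 4 samples per tissue, but the table is built from 1 cornea library and 1 limbus library. Named genes took 26104317 reads of the corneal library and 21182025 of the limbal library.

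Hemidesmosomes are plaques on the basal face of stratified epithelia. Inside the cell, plectin and the dystonin isoform BP230 bind keratin filaments; across the membrane, integrin α6β4, collagen XVII and the tetraspanin CD151 span the plaque; outside, laminin-332 forms anchoring filaments that integrin α6β4 binds. Collagen VII builds the anchoring fibrils that run from the basement membrane into the stroma. Inherited loss of these proteins causes blistering of skin and other lined surfaces, and in the cornea the same plaques hold the epithelium against shear by the eyelid.

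With 1 library per tissue there was no spread between replicates, so no test was made and no difference has a replicate check. Each log2 ratio sets normalized limbal reads over normalized corneal reads, where normalized means divided by the table's own size factor for that library, and carries an exact Clopper-Pearson 95% confidence interval (CI) that covers counting error only, since reads made by PCR are not independent molecules. The table does not name its direction, which was set by the direction that the study's text gives for keratocan, decorin and biglycan. In bulk tissue, fewer cells of a type and less RNA per cell cannot be told apart.

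The promoters of the genes at both ends of the range and of Col7a1, the gene between them without a detectable difference, are shown so that the sequences of members with opposite values can be read side by side. The RefSeq promoter table used here matched 5 of the 9 members (GRCm38.p6, 250 bases before to 50 after the start, 5′ to 3′ on the gene's strand). The windows are those of Col17a1 at chr19:47691993-47692292 on the minus strand, of Lamb3 at chr1:193301993-193302292 on the plus strand (the later of its 2 start sites in the table, the other at chr1:193301744-193302043) and of Col7a1 at chr9:108953336-108953635 on the plus strand. Capitals mark matches on either strand to 3 short promoter motifs. The TATA box was searched as TATAAA. The GC box was searched with the letters GGGCGG. The Krüppel-like factor box was searched with the letters CCACCC.
Col17a1: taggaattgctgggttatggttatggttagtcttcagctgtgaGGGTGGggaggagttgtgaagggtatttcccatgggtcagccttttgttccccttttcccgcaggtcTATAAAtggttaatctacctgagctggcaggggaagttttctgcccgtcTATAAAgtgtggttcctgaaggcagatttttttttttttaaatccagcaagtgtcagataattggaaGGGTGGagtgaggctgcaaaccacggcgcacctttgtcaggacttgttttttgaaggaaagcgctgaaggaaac
Lamb3: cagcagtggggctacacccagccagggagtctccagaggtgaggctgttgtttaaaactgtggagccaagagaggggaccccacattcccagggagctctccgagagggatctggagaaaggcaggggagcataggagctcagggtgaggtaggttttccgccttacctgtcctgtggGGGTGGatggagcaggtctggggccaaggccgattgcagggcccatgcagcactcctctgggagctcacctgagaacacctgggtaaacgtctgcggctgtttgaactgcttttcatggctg
Col7a1: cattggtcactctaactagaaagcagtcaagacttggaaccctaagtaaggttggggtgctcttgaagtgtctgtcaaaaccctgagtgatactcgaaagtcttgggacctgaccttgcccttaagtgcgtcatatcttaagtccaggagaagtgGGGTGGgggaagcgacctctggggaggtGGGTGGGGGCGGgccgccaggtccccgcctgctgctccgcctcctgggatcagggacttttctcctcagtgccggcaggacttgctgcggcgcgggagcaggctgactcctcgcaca
The Col17a1 window held the TATA box at 140 and 91 bases before the start and the Krüppel-like factor box at 207 and 24. The Lamb3 window held the Krüppel-like factor box at 72 bases before the start, and the Col7a1 window held it at 95 and 67 beside a GC box at 61, with no overlap between matches. Among 32851 promoter windows of this length, the TATA box was in 13.6%, the GC box in 35.7% and the Krüppel-like factor box in 31.5%. The AP-1 motif, searched as TGANTCA and present in 7.81% of windows, was in none of the member windows. Such matches are letters in a window and not evidence of binding, and the motifs were picked with the read values known.

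The 9 genes did not move together between the tissues. Beyond counting error, 5 were higher in the cornea (Col17a1, Itga6, Lama3, Itgb4 and Dst) and 3 in the limbus (Lamb3, Plec and Cd151), while the interval of Col7a1 included 0. By the same rule the cornea was higher for 40.5% and the limbus for 36% of the 13932 genes whose mean reached 10, so these counts alone do not set the members apart. By the stricter rule of a 2-fold difference, Col17a1 was the 1 member higher in the cornea and no member was higher in the limbus, against 8.88% and 18% of all genes. The limbal share came mostly from genes of lower mean than the members. In the bins of mean that span the members (median means of 1430 to 8646), the 95th percentile of log2 ratios was 0.74 to 0.93. That is short of 2-fold, so the lack of limbal members does not set them apart. At 1.5-fold the members numbered 3 in the cornea (Col17a1, Itga6 and Lama3) and 1 in the limbus (Lamb3), against 21.1% and 23.8% of all genes. The 9 genes had a median log2 ratio of -0.15, against -0.04 for all genes whose mean reached 10. In the bins of mean that span the members, the medians of all genes ran from -0.25 to -0.14, so the members were no more corneal than genes of like mean. When reads were scaled to the library totals, every log2 ratio rose by 0.21, the median of the members turned to 0.06, and the cornea was higher for 3 members and the limbus for 4, against 29.7% and 47.8% of all genes under that scaling.

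**Figure D1:**
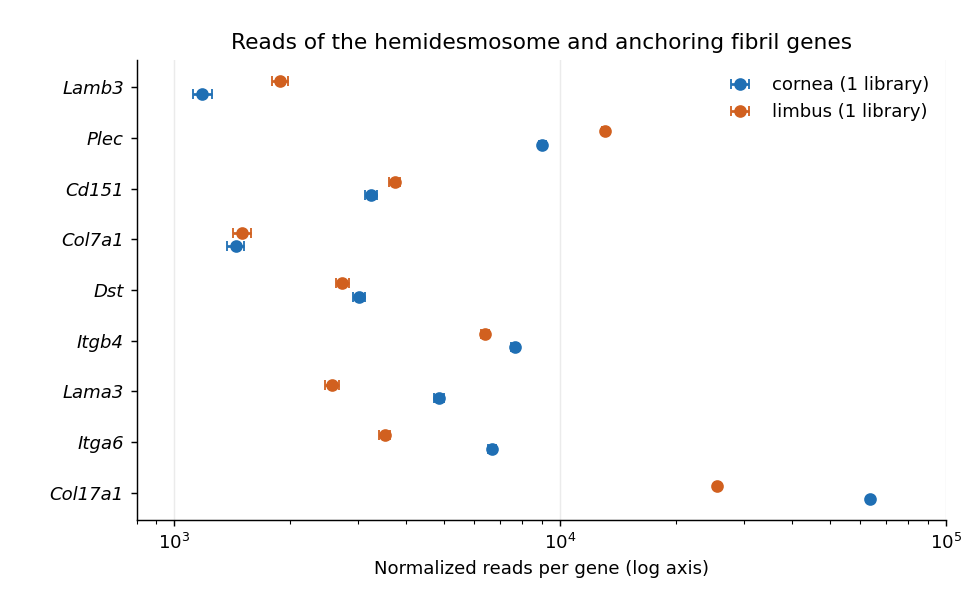
Normalized reads (log axis) of the 9 genes in the cornea library and the limbus library, with exact Poisson 95% intervals, ordered by their ratio. Col17a1 lies far to the right of the other genes in the cornea library and to their right by a smaller gap in the limbus library. Lamb3 and Plec are shifted most towards the limbus.

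Collagen XVII, encoded by Col17a1, is the transmembrane collagen whose long outer part reaches into the basement membrane. Col17a1 (chromosome 19, 47646344 to 47692094, GRCm38) drew 65707 corneal and 24775 limbal reads, which normalization turned into 63562 and 25611. The log2 ratio was -1.31 (95% CI -1.33 to -1.29), which is 2.48-fold higher in the cornea. It was the lowest ratio of the 9 genes, and 4.53% of all genes with a mean of at least 10 had a lower one. Col17a1 alone gave 63.1% of the members' corneal reads and 42.0% of their limbal reads. Summed over the other 8 genes, normalized reads came to 37096 for the cornea and 35401 for the limbus (log2 ratio -0.07, 95% CI -0.09 to -0.05), whereas the sum over all 9 gave -0.72. Under total reads the ratio of the 8 genes was 0.14, so its sign depended on the scaling.

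Integrin α6β4 is the laminin receptor of the hemidesmosome, and its chains are encoded by Itga6 and Itgb4. Itga6 (chromosome 2, 71745616 to 71858416) drew 6905 corneal and 3401 limbal reads, for a log2 ratio of -0.93 (95% CI -0.99 to -0.87). Itgb4 (chromosome 11, 115974709 to 116008412) drew 7893 corneal and 6196 limbal reads, for a log2 ratio of -0.25 (95% CI -0.30 to -0.21). Scaled to total reads, Itgb4 was at -0.05, with an interval that reached 0, and less the median of the epithelial genes it was at 0.15. The chains of this heterodimer thus differed in their ratio by -0.67 on the log2 scale (Itga6 minus Itgb4, 95% CI -0.75 to -0.60), a value that no scaling between the libraries can change. Per kilobase of exon, Itga6 stood at 0.680 of Itgb4 in the cornea (95% CI 0.658 to 0.702) and at 0.427 in the limbus (95% CI 0.409 to 0.445). With the longest transcript of each gene as its length these proportions were 1.26 and 0.791, so which chain is more abundant in the cornea depended on the length used. The α6 chain also pairs with β1, and Itgb1 had a log2 ratio of -0.35 (95% CI -0.41 to -0.29) from 5303 and 3903 reads. Itga3, which encodes the α chain of the other epithelial laminin-332 receptor, drew 4484 corneal and 2598 limbal reads, for a log2 ratio of -0.69 (95% CI -0.76 to -0.62).

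Laminin-332 is a trimer secreted by the basal cells, and Lama3 and Lamb3 encode its α3 and β3 chains. Lama3 (chromosome 18, 12333819 to 12583013) drew 5032 corneal and 2484 limbal reads, for a log2 ratio of -0.92 (95% CI -0.99 to -0.85). Lamb3 (chromosome 1, 193207699 to 193343878) went the other way at 1224 corneal and 1820 limbal reads, for a log2 ratio of 0.67 (95% CI 0.56 to 0.77), or 1.59-fold higher in the limbus. The log2 ratios of the 2 genes lay -1.59 apart (Lama3 minus Lamb3, 95% CI -1.72 to -1.46). Lama3 per kilobase of exon was 2.53 times Lamb3 in the cornea (95% CI 2.38 to 2.69) and 0.840 times Lamb3 in the limbus (95% CI 0.791 to 0.892). With longest transcripts these values were 1.90 and 0.630, so the order of these chains turned between the tissues under either length. The annotated span of Lamb3 overlaps Hsd11b1 and G0s2 on the opposite strand, of which Hsd11b1 drew 1 corneal and 42 limbal reads and G0s2 drew 9 corneal and 74 limbal reads, and no source used here says if the counting used strand. Hsd11b1 ends at 193264075 and G0s2 at 193273217, both before the Lamb3 promoter windows, the first of which begins at 193301744.

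Plectin and dystonin are giant linker proteins (plakins) of the inner plaque. Plec (chromosome 15, 76170974 to 76232574) drew 9321 corneal and 12644 limbal reads, for a log2 ratio of 0.54 (95% CI 0.50 to 0.57), or 1.45-fold higher in the limbus. Dst (chromosome 1, 33908225 to 34308661) drew 3127 corneal and 2639 limbal reads, for a log2 ratio of -0.15 (95% CI -0.22 to -0.07), whose sign was lost under total reads, with 0.06. Within each library Dst per kilobase of exon stood at 0.148 of Plec in the cornea and at 0.0919 in the limbus, or at 0.223 and 0.139 with longest transcripts. Both genes are also used outside the epithelium, in muscle and nerve, and GENCODE lists 20 transcripts for Dst and 22 for Plec while the table has 1 row for each gene, so the epithelial forms were not measured apart. The 6 skeletal muscle markers summed to 29.0 corneal and 8920 limbal normalized reads, and the 6 Schwann cell markers to 4868 and 8154. Mbp alone gave 4193 and 5680 of the Schwann cell sums. The part of muscle and nerve in the values of Plec and Dst was not tested. Parp10 overlaps the 5′ part of Plec on the same strand, with 443 corneal and 558 limbal reads.

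CD151 binds laminin-receptor integrins and travels with α6β4 into the plaque. Cd151 (chromosome 7, 141467392 to 141471473) drew 3350 corneal and 3609 limbal reads, for a log2 ratio of 0.20 (95% CI 0.13 to 0.27). Other tetraspanins of the same membrane domains went in both directions. Cd9 drew 15789 corneal and 9497 limbal reads, for a log2 ratio of -0.64 (95% CI -0.67 to -0.60), whereas Cd81 drew 1651 corneal and 2181 limbal reads, for a log2 ratio of 0.50 (95% CI 0.40 to 0.59).

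Collagen VII is the sole component of the anchoring fibril core. Col7a1 (chromosome 9, 108953586 to 108984875) drew 1496 corneal and 1452 limbal reads, which normalization turned into 1447 and 1501. Its log2 ratio of 0.05 carried a 95% CI of -0.05 to 0.16, and at this depth no difference between the tissues could be detected. Scaled to total reads the ratio was 0.26, with an interval from 0.15 to 0.36.

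**Figure D2:**
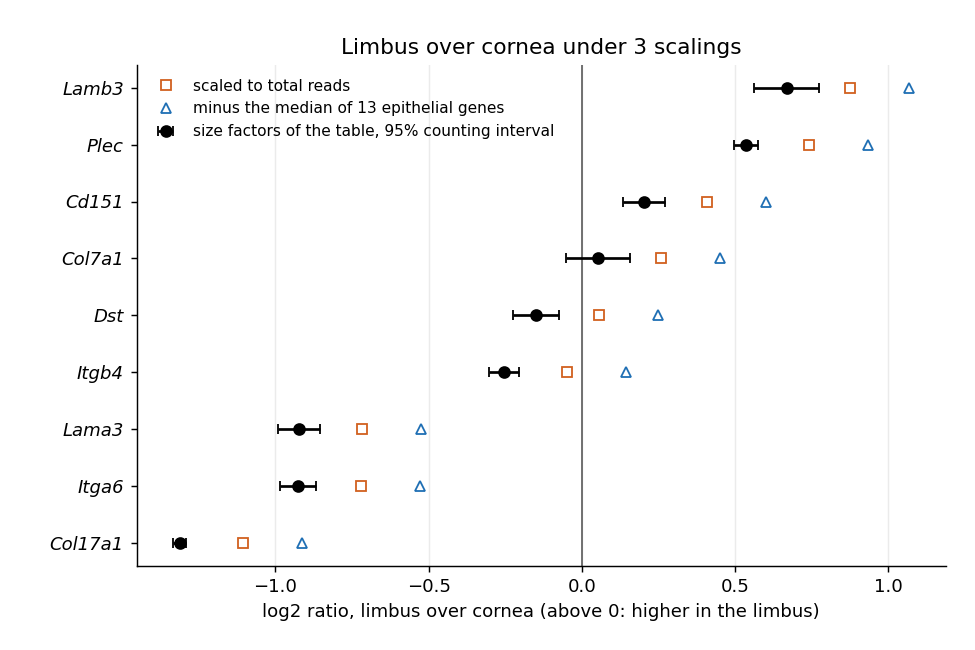
Log2 ratio of limbus over cornea for each gene with the size factors of the table (filled circles, exact 95% counting intervals), scaled to total reads (squares) and after subtraction of the median of 13 epithelial genes (triangles). Col17a1, Itga6 and Lama3 lie left of 0 and Lamb3, Plec and Cd151 right of 0 under all 3 scalings, while Itgb4, Dst and Col7a1 lie within 0.26 of 0 under the first 2.

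In the order of their log2 ratios the genes ran Col17a1, Itga6, Lama3, Itgb4, Dst, Col7a1, Cd151, Plec and Lamb3. Of the 36 pairs of members, 35 differed in their ratio by more than counting error, and these differences do not depend on the scaling. At these read numbers small differences pass that limit. The share over pairs of other genes was not computed, so the count does not set the members apart. The 1 pair within counting error was Itga6 and Lama3, a receptor chain and a ligand chain, whose ratios differed by 0.003 (Lama3 minus Itga6, 95% CI -0.09 to 0.09). The smallest of the other differences was that of Itgb4 and Dst, at -0.10 (95% CI -0.19 to -0.02). The largest gap was between Lamb3 and Col17a1, at 1.98 (95% CI 1.87 to 2.09). Compared with genes whose mean lay within 2-fold of their own, Lamb3 was above 93.5% of 3988 genes and Plec above 90.9% of 473, whereas Lama3 was above 9.81% of 1958, Itga6 above 10.3% of 1362 and Col17a1 above 6.32% of 95. Itgb4 and Dst stood near the middle of their neighbors, above 45.3% and 54.7%.

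**Figure D3:**
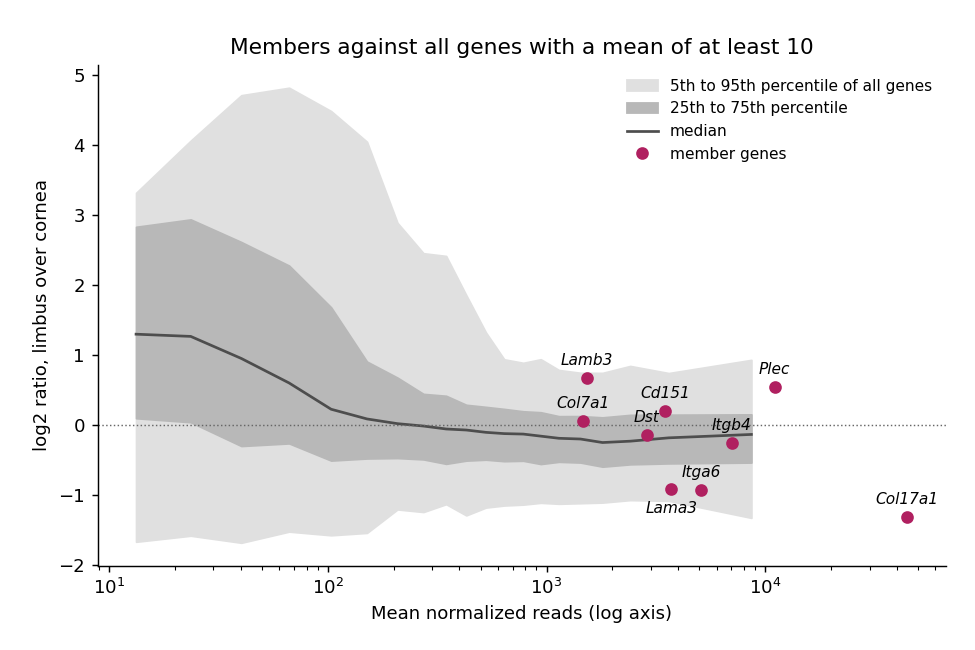
Log2 ratio of limbus over cornea against mean normalized reads (log axis) for the 9 genes (points), with the percentiles of all 13932 genes with a mean of at least 10 in 20 bins of the mean (grey bands). Lamb3 lies above and Lama3 and Itga6 lie below the darker inner band, Dst and Itgb4 lie inside it, and Plec and Col17a1 lie to the right of the centre of the last bin.

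Levels can be compared between genes only per length. Col17a1 ranked 1 in both libraries, at 10574 normalized reads per kilobase of exon in the cornea (95% CI 10494 to 10656) and 4261 in the limbus (95% CI 4208 to 4314). Cd151 followed in both, at 1182 (cornea) and 1361 (limbus), and Itgb4 was the third, at 1088 and 913. Dst was the lowest in both libraries, at 73.5 and 66.3, with Col7a1 above it at 141 and 146. The intervals of the ranked neighbors did not overlap in either library. Of the summed level per kilobase of the 9 genes, Col17a1 made up 70.8% in the cornea and 50.8% in the limbus, while Cd151 went from 7.92% to 16.2% and Plec from 3.33% to 8.61%. Between the libraries Plec and Itga6 changed places, and so did Lamb3 and Lama3. When the longest transcript was the length, Itga6 instead of Itgb4 was the third in the cornea, and every other rank was as before in both libraries. Against Itgb4, Col17a1 stood at 9.72 times per kilobase in the cornea (95% CI 9.49 to 9.94) and at 4.67 times in the limbus (95% CI 4.54 to 4.80).

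**Figure D4:**
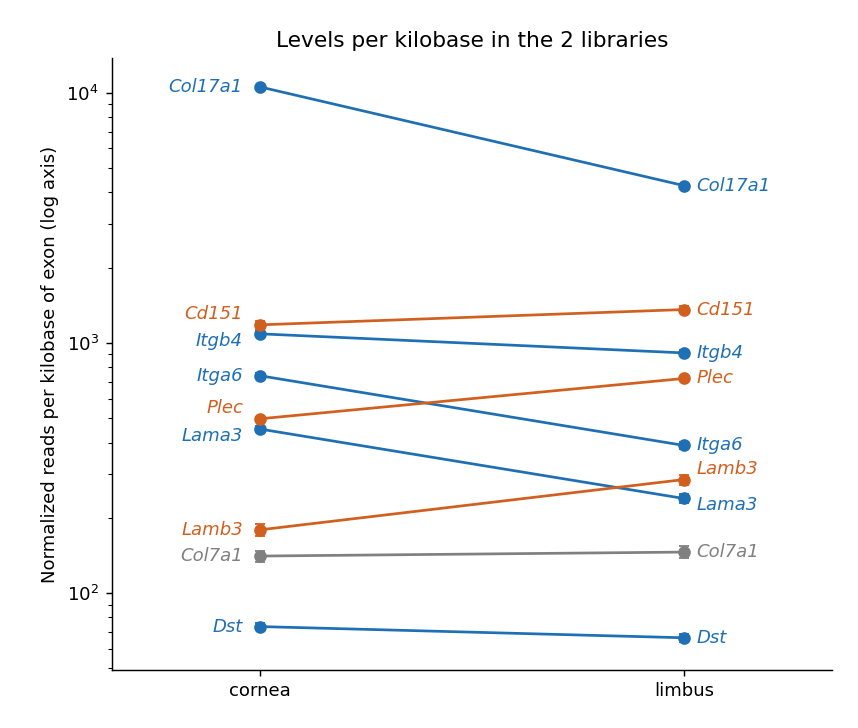
Normalized reads per kilobase of exon (log axis) of the 9 genes in each library, with exact Poisson 95% intervals. Blue lines mark genes higher in the cornea, orange lines genes higher in the limbus and the grey line Col7a1, and the crossing lines are those of Plec with Itga6 and of Lamb3 with Lama3.

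The genes around the plaque were described from lists chosen with earlier results of these data known. Beyond counting error, the cornea was higher for 40.5% and the limbus for 36% of all genes with a mean of at least 10. Under total reads these shares were 29.7% and 47.8%. The counts of each list below are to be read beside these shares. Of 8 laminin-332 partners and receptors (Lama5, Itga3, Itgb1, Cd9, Cd81, Cd82, Fermt1 and Dag1), the cornea was higher for 4 and the limbus for 3 beyond counting error, with a median log2 ratio of -0.15. Fermt1, which encodes kindlin-1, an activator of integrins, was the lowest of them at 2743 corneal and 1563 limbal reads, for a log2 ratio of -0.72 (95% CI -0.81 to -0.63). Of 10 genes listed for protein processing and shedding in general, 4 were higher in each tissue. Pcolce, an enhancer of procollagen processing, drew 1367 corneal and 5453 limbal reads, for a log2 ratio of 2.09 (95% CI 2.01 to 2.18), and Serpinh1, the collagen chaperone, drew 1621 corneal and 2944 limbal reads, for a log2 ratio of 0.96 (95% CI 0.87 to 1.04). The sheddase gene Adam9 drew 1566 corneal and 830 limbal reads, for a log2 ratio of -0.82 (95% CI -0.94 to -0.70).

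A list of 10 intermediate filament genes and further plakins held 4 keratins, 5 plakins and Vim, the mesenchymal filament gene. The limbus was higher for 5 of them (Krt14, Krt15, Krt17, Vim and Eppk1) and the cornea for 3 beyond counting error, around a median of 0.12, and under total reads the limbus was higher for 8. Among the 4 keratins of this list, Krt5 had the highest level per kilobase over both libraries, though not in the limbus alone. Krt5 drew 614126 corneal and 433918 limbal reads, for a log2 ratio of -0.41 (95% CI -0.41 to -0.40). Krt14 drew 9952 corneal and 53574 limbal reads, for a log2 ratio of 2.52 (95% CI 2.49 to 2.56). Krt17 drew 72 corneal and 11514 limbal reads, for a log2 ratio of 7.42 (95% CI 7.08 to 7.77). Dsp, the desmosomal plakin, was lower in the limbus at 88716 corneal and 46876 limbal reads, for a log2 ratio of -0.82 (95% CI -0.84 to -0.81).

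In the basement membrane list of 11 genes, the limbus was higher for 7 and the cornea for 2, with a median log2 ratio of 1.34. Nid1 drew 1102 corneal and 992 limbal reads, for a log2 ratio of -0.06 (95% CI -0.18 to 0.07). Nid2 drew 10 corneal and 216 limbal reads, for a log2 ratio of 4.53 (95% CI 3.62 to 5.61). Frem2, a protein of the epithelial basement membrane in development, drew 2152 corneal and 493 limbal reads, for a log2 ratio of -2.03 (95% CI -2.17 to -1.89). The desmosome, the other keratin-anchoring junction, gave 8 of 9 genes higher in the cornea and 1 in the limbus, with a median of -0.37. Of all genes, 40.5% and 36% were higher in the cornea and in the limbus. Under total reads the desmosome counts were 5 and 2, against 29.7% and 47.8% of all genes. Dsg1a had the lowest ratio among them, -2.14 (95% CI -2.19 to -2.10), Dsc2 had -0.71 (95% CI -0.74 to -0.68), and Pkp2 was the gene higher in the limbus, at 1.79 (95% CI 1.47 to 2.12).

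**Figure D5:**
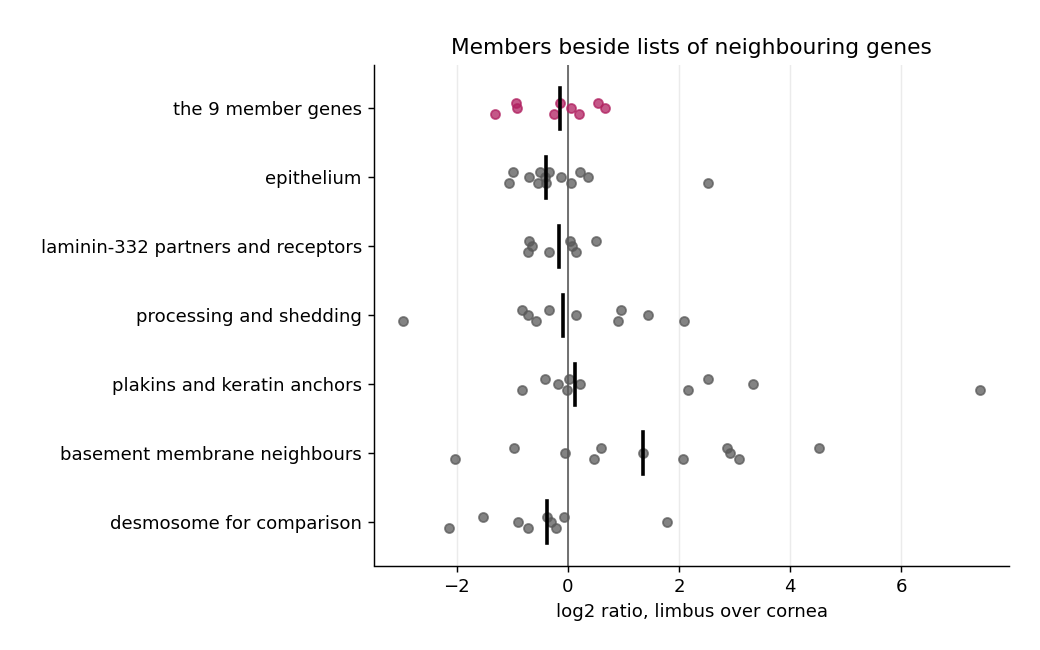
Log2 ratio of limbus over cornea of the 9 genes (top row) and of the genes of 6 lists, 1 point per gene, with a vertical bar at each median and vertical offsets for legibility only. The medians run from -0.40 for the epithelial list to 1.34 for the basement membrane list, and the members lie at -0.15.

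The labels were checked against markers of the cells that the dissections could hold. Of the 5 corneal epithelial markers, 4 were higher in the cornea, Krt12 among them with a log2 ratio of -2.19, and Krt14 was higher in the limbus. From these same data the study reported Krt14, Krt15 and Krt19 as higher in the limbus, which it had anticipated when checking the dissection. Of the 6 conjunctival markers, 5 were higher in the limbus, with log2 ratios from 1.86 to 5.16, and Muc5ac had 1 read in each library. Summed, the conjunctival markers gave 39302 corneal and 247577 limbal normalized reads, the 4 smooth muscle markers 76.4 and 1571, the 5 blood vessel markers 179 and 2219, the 4 melanocyte markers 272 and 1369 and the 3 leukocyte markers with a value 489 and 1221. Single genes made most of 2 corneal sums, Krt13 with 34384 of the conjunctival and Kdr with 164 of the blood vessel reads. Kdr had a log2 ratio of 0.81, and the other blood vessel markers had 5.99 to 7.23. Among the 5 keratocyte markers 2 were higher on each side, but Kera (keratocan, log2 ratio -2.99) and Dcn (decorin, 0.64) served to set the direction and check nothing. Of 13 general epithelial genes, the cornea was higher for 9 and the limbus for 3 (8 and 5 under total reads), from Trp63, the transcription factor of stratified epithelia, at -1.06 to Krt14 at 2.52, with a median of -0.40. After subtraction of that median, Col17a1 stood at -0.91, Itga6 at -0.53 and Lama3 at -0.52, and the other 6 members lay above 0, from 0.15 for Itgb4 to 1.07 for Lamb3. The subtraction raised every gene alike, and the share of all genes above 0 after it was not computed. The part of the epithelial share and of the conjunctival and vascular cells of the rim in these values was not tested.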

How the data were processed

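RNA of 1 cornea pool and 1 limbus pool was compared in 1 deposited table. The authors worked in CLC Genomics Workbench, where adaptors were removed and GRCm38 (mm10) was the mapping reference, and named the trimmed mean of M-values for normalization. The deposited table carries the name deseq, but neither the version of that tool nor the strand setting is given in the sources used here. The authors deposited for each gene a mean normalized signal (reads over a size factor per library), a shrunken log2 fold change and that value's standard error, and p-values and adjusted p-values. The p-values were not used, and the log2 values served only to find the reads of both libraries and are not printed.

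The mean fixes the pairs of whole reads that are possible, 109 cornea reads weighing as much as 102 limbus reads, and the equations of a shrunken negative binomial fit, solved for the reads, chose the pair. The solution lay within 1 read of a pair for 17437 of 17442 genes, and within 0.0148 reads for the members, whose next pair was at least 109 reads away. For 7 genes, none a member, the trend of the dispersion decided between 2 near pairs. On simulated data for this comparison, read numbers were found exactly for all 17049 genes, and 200 of 200 changed genes had their direction. The simulation used the same kind of fit and the same size factors, so it checks the solving and not the model behind the table. Its changed genes had means over 50 and changes of at least 2-fold, so their direction was no hard test. The read numbers of the 2 libraries are derived values, with size factors of 1.03 and 0.967. Libraries with 3 reads or fewer were set to 3 for ratios. Rows without a gene name (17484 of 40904) hold no values.

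Lengths and positions are from GENCODE M21 (GRCm38). Intervals between members use the normal approximation on log counts. The members and lists were chosen with earlier results of these data known. All 9 members are named, and of each list the gene with the most reads per kilobase over both libraries and the extreme on each side whose mean reaches 50, while the whole list of laminin-332 partners could be named, which counts 8 genes here, 1 more being not reported. Alternatives were total reads, a trimmed mean of M-values (30% of ratios and 5% of means trimmed at each end), centring on the median or on epithelial genes, a pseudocount of 1, the next pair, other limits on mean and fold, and longest transcripts. Python 3.11.15, numpy 2.4.6, scipy 1.17.1 and pandas 2.3.3 were used.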

Additional observations from a re-analysis of the deposited data

How the results depend on the processing

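No paired analysis was possible because the table holds 1 library per tissue and no value for a numbered sample, and for the same reason no replicate could be left out. The directions of Col17a1, Itga6, Lama3, Lamb3, Plec and Cd151 were the same under every scaling run. Scaling to total reads turned Dst to 0.0567, and subtraction of the epithelial median turned Dst to 0.25 and Itgb4 to 0.15 on the log2 scale. The trimmed mean of M-values added 0.02 to every log2 ratio and left the 9 members within their intervals. Under total reads the cornea was higher for 3 members (29.7% of all genes), the limbus for 4 (47.8%), and the members' median was 0.0567. Less the epithelial median, a setting chosen for the counts after seeing the data, the limbus was higher for 6 members and the cornea for 3. The limbus was then 2-fold higher for 1 member and the cornea for 0, and the median was 0.25. This setting raised the log2 ratio of every gene alike. The shares of all genes under it were not computed, so these counts do not set the members apart. At 1.5-fold, 3 members were higher in the cornea and 1 in the limbus. Without Dst and Plec the median was -0.25. Of all genes, 11.9% were 2-fold higher in the limbus at a mean of at least 50, and 5.62% in the cornea under total reads. Total reads also moved the counts higher in the limbus to 5 in the epithelial list, 8 in the list of plakins and keratin anchors and 2 in the desmosome list, and left 5 desmosome genes higher in the cornea. The next closest pairs of read numbers kept the sign of every member except Col7a1, at -0.15. Depth limits Tll1, Tll2, Frem1 and Nid2 in the gene lists, which had fewer than 50 reads in a library.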
